A study of Mus musculus with 9 samples.

Results

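The forkhead transcription factor genes were described here as every protein-coding gene of the mouse annotation whose symbol begins with Fox, a subfamily letter from a to s and a number. The rule gave 44 genes among 55536 in the files, 22028 of them protein-coding. Of these, 17 passed the filter on low counts and could be tested, in one fit of the 15896 genes of any kind that passed it. Expression was measured by RNA sequencing in sorted endocrine cells of the mouse pancreas, from animals of the C57B/L6 strain that were 12 weeks old. Islets were kept in culture overnight and dispersed, and the cells were separated by antibodies to surface proteins, and the labels name no genetic change or drug in any group. The beta-enriched subset was sorted as CD24low CD71+, the alpha-enriched subset as CD24low CD71- and the delta-enriched subset as CD24high, with 3 libraries each. The labels do not give the sex of the mice or say whether animals were pooled, so the p-values measure the spread between these libraries, which may be technical in part.

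Forkhead proteins bind DNA through a shared winged-helix domain, and the subfamilies differ outside it. The FoxO proteins are held out of the nucleus when insulin or growth factor signalling through PI3K and AKT phosphorylates them, and they act on metabolic, cell cycle and stress genes. The FoxA proteins open closed chromatin and are needed for pancreas development and for expression of islet genes. The FoxP proteins pair with each other and mostly repress transcription, and in mice Foxp1, Foxp2 and Foxp4 are together required for alpha cell proliferation and function.

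The libraries held 5663141 to 9529920 expected counts. One ribosomal locus, CT010467.1, took 34.4% of the counts in beta replicate 2 and 3.15% to 5.37% in the other libraries. The markers of each subset were highest in its own libraries: the 6 alpha markers summed to 415.2 to 635.2 CPM, counts scaled to library size, in the beta libraries, 81071.7 to 100625.1 CPM in the alpha libraries and 2030.7 to 6240.1 CPM in the delta libraries. The 8 beta markers summed to 49506.6 to 60521.8 CPM in beta, 4261.1 to 6203.7 CPM in alpha and 5930.3 to 7189.8 CPM in delta libraries. The 5 delta markers summed to 3.26 to 4.62 CPM in beta, 116.2 to 159.1 CPM in alpha and 15391.2 to 21753.7 CPM in delta libraries. The part of markers seen outside their own subset was not tested. The 2 markers of PP cells, Ppy and Pyy, summed to 62.4 to 90.4 CPM in the beta libraries, 2732.6 to 3819.7 CPM in the alpha libraries and 4358.2 to 6276.4 CPM in the delta libraries, and their part in the results below was not tested. The 11 acinar markers summed to 2294.7 CPM in delta replicate 3, against 16.9 to 327.4 CPM in the other 8 libraries. The 7 duct markers summed to 362.9 to 413.7 CPM in beta, 603.5 to 795.2 CPM in alpha and 189.9 to 342.3 CPM in delta libraries. In sorted bulk samples, fewer cells of a type and less RNA per cell cannot be told apart.

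Transcript levels were compared between genes on the deposited TPM, a transcript abundance that is scaled by length and by the sum over all genes of a library. The forkhead genes together summed to 106.8 ± 25.1 TPM in beta, 134.3 ± 25.0 TPM in alpha and 119.7 ± 19.1 TPM in delta libraries (SD, n = 3 each). The ribosomal locus with 34.4% of the counts of beta replicate 2 enters the sum that scales TPM. Its part in the beta TPM values was not tested. Foxo1, for example, had 8.52, 7.08 and 10.86 TPM in beta replicates 1, 2 and 3, at 147.8, 146.3 and 146.7 CPM. Foxp1 had the highest mean TPM of the family in all 3 subsets, at 17.2 ± 3.13 TPM in beta, 32.0 ± 10.5 TPM in alpha and 32.8 ± 3.0 TPM in delta libraries (SD, n = 3 each). Foxa2, the FoxA factor of endoderm and islet cells, followed with 16.7 ± 4.82 TPM in beta, 18.5 ± 2.54 TPM in alpha and 15.0 ± 3.80 TPM in delta libraries (SD, n = 3 each). In the beta libraries the levels of Foxp1 and Foxa2 lay within each other's spread, while in the delta libraries the lowest Foxp1 value, 29.37 TPM, lay above the highest Foxa2 value, 17.20 TPM.

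Below these genes stood Foxj3, with 14.9 ± 2.23 TPM in beta, 17.3 ± 3.73 TPM in alpha and 12.2 ± 3.75 TPM in delta libraries (SD, n = 3 each). In all 3 subsets Foxj3 held the third place. The fourth place differed between the subsets: it was held by Foxo1 in beta, at 8.82 ± 1.91 TPM, by Foxn3 in alpha, at 8.95 ± 2.33 TPM, and by Foxp4 in delta, at 10.3 ± 5.69 TPM (SD, n = 3 each). Foxk2, Foxn2 and Foxo3 lay in the same middle range. Among the 10 highest genes of a subset, the gap between neighbours was smaller than the larger of their SDs for 7 of 9 pairs in beta, 6 of 9 in alpha and 8 of 9 in delta. The exceptions were Foxj3 above Foxo1 and Foxp4 above Foxj2 in beta, Foxp1 above Foxa2, Foxj3 above Foxn3 and Foxo1 above Foxa3 in alpha, and Foxp1 above Foxa2 in delta. Both genes of a pair come from the same libraries, which the SDs ignore, so a gap below the SD does not show an unstable order. In alpha, Foxo3 lay above Foxo1 in every library, at 6.73, 6.68 and 10.0 TPM against 5.28, 5.08 and 7.96 TPM. In delta, Foxk2 and Foxo1 changed order, at 3.54, 4.5 and 9.24 TPM against 4.67, 6.29 and 6.27 TPM. The FoxP subfamily made up 23.0% of the forkhead TPM in beta libraries (range 22.2% to 23.6%), 32.8% in alpha libraries (29.9% to 35.5%) and 36.4% in delta libraries (34.7% to 39.3%). The beta range lay below both other ranges. The FoxO subfamily made up 17.7%, 12.6% and 15.5% of the forkhead TPM in beta, alpha and delta libraries.

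**Figure D1:**
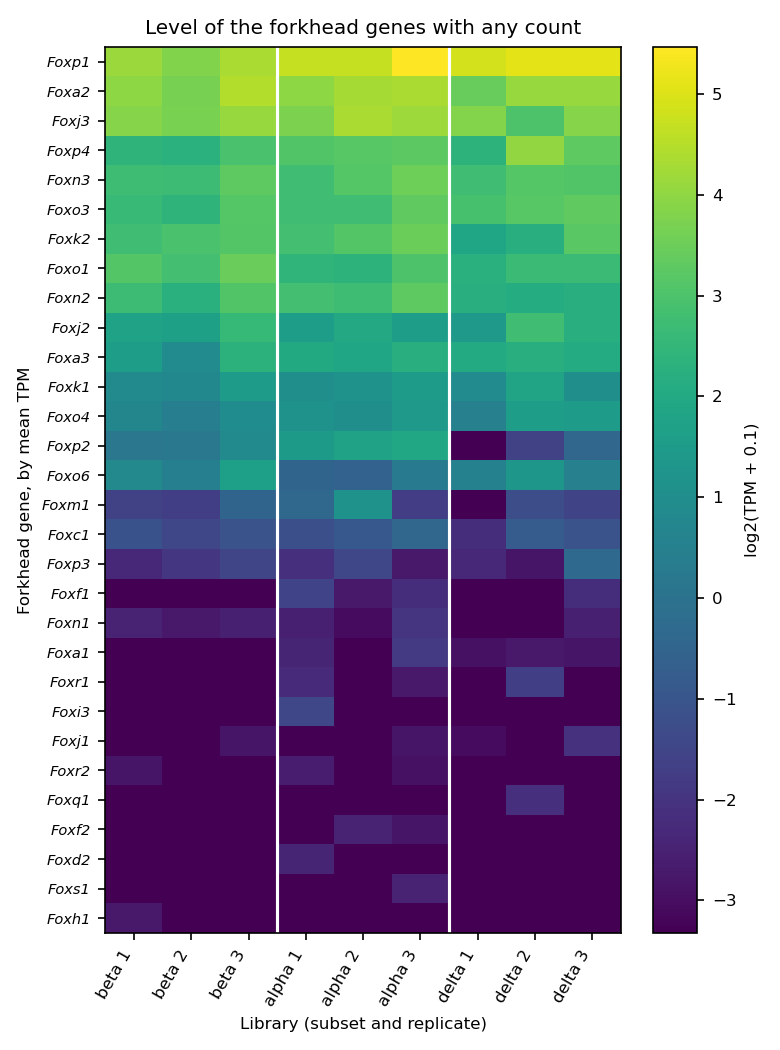
Level of the 30 forkhead genes with at least 1 count, as log2(TPM + 0.1), in each of the 9 libraries (columns, grouped as beta, alpha and delta). Genes run down the page by their mean TPM; Foxp1, Foxa2 and Foxj3 form the top rows in every subset, and the genes from Foxf1 downwards lie near 0 in most libraries.

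Of the 27 forkhead genes that did not pass the filter, 14 had no count in any library, among them Foxb1, Foxb2, Foxc2, Foxd1, Foxd3, Foxd4, Foxe1, Foxe3, Foxi1, Foxi2, Foxl1, Foxl2 and Foxn4. Over the 65815603 counts of all libraries, a count of 0 allows up to 0.0456 CPM, from 3 counts, and this limit covers counting error only. It is for the level over all libraries pooled, without TMM scaling, and the limit within a single subset is higher. Most of these genes are known for roles in other organs, such as Foxe1 in the thyroid and Foxl2 in the ovary. The other 13 genes had between 1 and 71.32 counts in all.

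Foxa1, the close relative of Foxa2, had no count in the 3 beta libraries, 5, 0 and 6 counts in the alpha libraries and 2, 2 and 2 counts in the delta libraries. Foxf1, a factor of mesenchyme, had no count in the beta libraries, 10, 2 and 3 counts in the alpha libraries and 0, 0 and 4 counts in the delta libraries. The 8 mesenchymal markers summed to 1.28, 1.54 and 1.49 CPM in beta, 13.2, 49.0 and 16.4 CPM in alpha and 3.41, 3.63 and 8.87 CPM in delta libraries. The part of mesenchymal cells in the Foxf1 counts was not tested. Foxp3, which defines regulatory T cells, had 2 to 15.67 counts in every library, and 7 of its 9 values were not whole numbers, which marks reads that the authors' counting divided between genes. The 5 immune markers summed to 1.41 to 3.47 CPM in the beta libraries, 0.63 to 1.41 CPM in the alpha libraries and 1.21 to 4.37 CPM in the delta libraries, with Ptprc and Cd3e at 0 in all 9 libraries and counts for the other 3. Foxj1, the master gene of motile cilia, had 0, 0 and 1 counts in beta, 0, 0 and 1 counts in alpha and 1, 0 and 5 counts in delta libraries. The counts of Foxd2, Foxf2, Foxh1, Foxi3, Foxn1, Foxq1, Foxr1, Foxr2 and Foxs1 reached at most 8 in any library, and that value was Foxq1 in delta replicate 2. These values are too low for a comparison between the subsets.

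The rule used only symbols, and the members share little else by position. They lie on 16 chromosomes. On GRCm38, 8 of them form 3 clusters whose neighbours are within 250 kb of each other: Foxq1, Foxf2 and Foxc1 on chromosome 13, Foxd2 and Foxe3 on chromosome 4, and Foxf1, Foxc2 and Foxl1 on chromosome 8. Foxc1, at chr13:31806633-31812476, passed the filter, and the other 7 clustered genes did not.

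Differences between the subsets were tested with edgeR's quasi-likelihood test on the rounded counts, fitted over all 15896 genes that passed the filter, with Benjamini-Hochberg adjustment over all of them and a threshold of 0.05. Each comparison uses 2 of the same 3 subsets, so the 3 comparisons share libraries. Between beta and alpha, 3 of the 17 tested forkhead genes (17.6%) were called, against 26.6% of all genes tested. Foxo1 and Foxo6 were higher in beta, as were 14.8% of all genes, and Foxp1 was lower, as were 11.9%. Between beta and delta, 7 of 17 (41.2%) were called, against 30.6% of all genes. Foxj3, Foxo1 and Foxp2 were higher in beta, a direction called for 15.4% of all genes, and Foxa3, Foxo3, Foxp1 and Foxp4 were lower, called for 15.3%. Between alpha and delta, 6 of 17 (35.3%) were called, against 24.3% of all genes. Foxk2, Foxn2 and Foxp2 were higher in alpha, a direction called for 11.0% of all genes, and Foxo3, Foxo6 and Foxp1 were lower, called for 13.3%. Leaving out delta replicate 2 reduced the calls between beta and delta to 4, in a fit that called 29.3% of all genes. Fitting the beta and alpha libraries alone raised those between beta and alpha to 6 (35.3%), where 35.4% of all genes were called.

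The median log2 fold change of the 17 genes was -0.20 in beta against alpha, 0.00 in beta against delta and -0.08 in alpha against delta, beside -0.02, -0.02 and -0.01 for all genes tested. The libraries did not overlap for 9 of 17 members in beta against alpha, where 45.5% of all genes did not overlap. The same count was 9 in beta against delta, against 42.6% of all genes, and 7 in alpha against delta, against 36.1% of all genes. Nothing particular to the family is read from these shares.

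**Figure D2:**
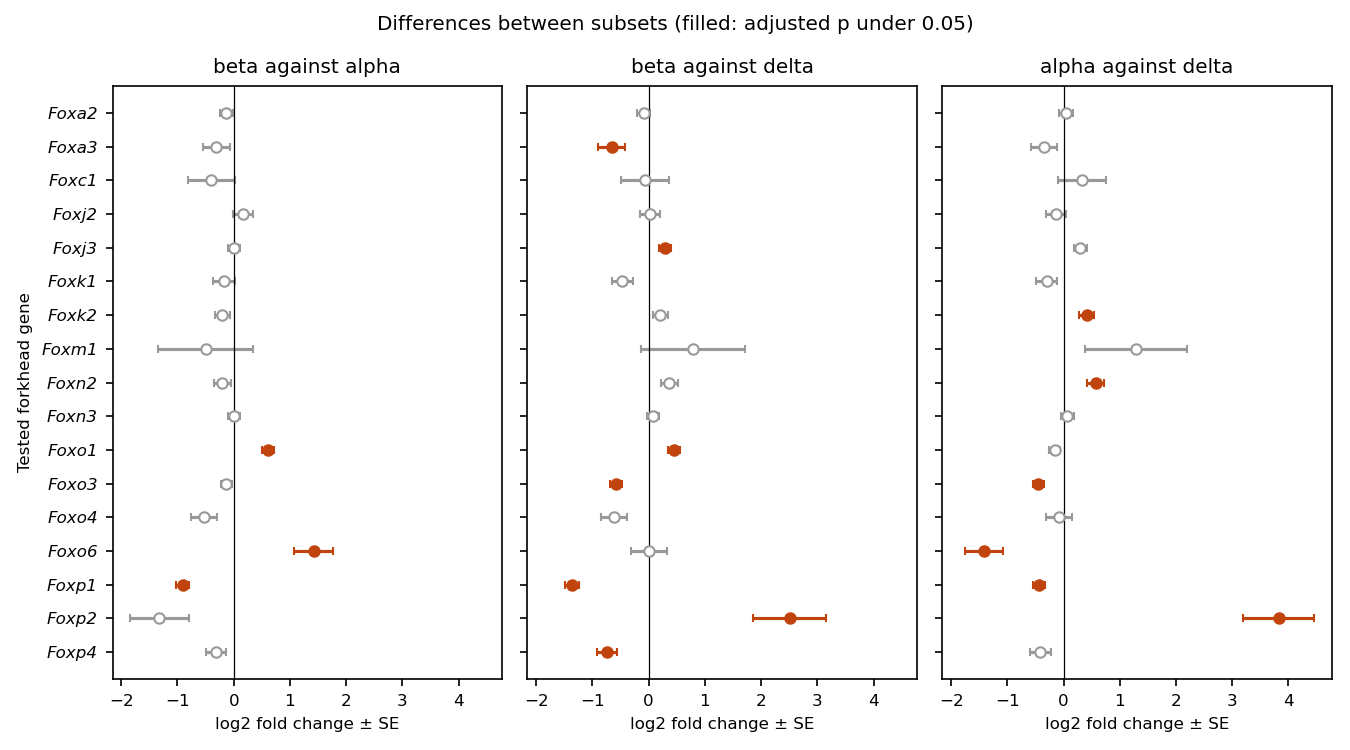
Log2 fold change with its SE of the 17 tested forkhead genes in beta against alpha, beta against delta and alpha against delta, from the edgeR fit on all 9 libraries. Filled points have an adjusted p under 0.05; Foxp1 is left of 0 in all 3 panels, and Foxp2 has the widest span, between -1.32 and 3.83.

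Foxp1 (ENSMUSG00000030067, chr6:98925338-99522721, minus strand, GRCm38) was lower in beta than in both other subsets, and lower in alpha than in delta. The gene has several start sites in RefSeq, and 3 windows of 300 bases, each running from 250 bases before a start to 50 after it, lie within its annotated span. They are shown because Foxp1 is the most abundant member and differs in all 3 comparisons, beside the windows of Foxo1 and Foxo3, the FoxO genes with the most counts, which were called in different directions in beta against delta. Capitals mark matches to the forkhead core motif TGTTTAC, or to its variant TGTTTGC, its variant TGTTTAT or its variant TGTTTGT, on either strand. The coordinates are GRCm38.p6, and each sequence is written 5′ to 3′ on the strand of its gene.
Foxp1 window 1, chr6:99520944-99521243, minus strand: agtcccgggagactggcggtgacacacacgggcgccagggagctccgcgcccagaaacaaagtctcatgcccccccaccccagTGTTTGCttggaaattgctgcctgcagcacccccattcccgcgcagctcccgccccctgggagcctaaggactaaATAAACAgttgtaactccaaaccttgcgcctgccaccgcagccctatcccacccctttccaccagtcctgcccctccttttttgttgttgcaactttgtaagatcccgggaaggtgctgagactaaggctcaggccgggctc
Foxp1 window 2, chr6:99266466-99266765, minus strand: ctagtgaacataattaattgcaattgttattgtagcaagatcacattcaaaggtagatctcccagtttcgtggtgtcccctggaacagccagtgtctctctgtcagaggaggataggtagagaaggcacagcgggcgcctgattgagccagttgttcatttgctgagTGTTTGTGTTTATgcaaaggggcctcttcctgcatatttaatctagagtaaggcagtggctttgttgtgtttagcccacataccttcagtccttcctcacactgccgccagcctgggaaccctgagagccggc
Foxp1 window 3, chr6:99028249-99028548, minus strand: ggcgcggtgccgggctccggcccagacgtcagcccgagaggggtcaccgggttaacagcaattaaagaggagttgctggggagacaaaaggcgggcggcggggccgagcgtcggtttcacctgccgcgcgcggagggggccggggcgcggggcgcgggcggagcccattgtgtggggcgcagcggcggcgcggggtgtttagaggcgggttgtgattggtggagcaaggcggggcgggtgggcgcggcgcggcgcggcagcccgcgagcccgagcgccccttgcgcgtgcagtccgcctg
Foxo1, chr3:52268087-52268386, plus strand: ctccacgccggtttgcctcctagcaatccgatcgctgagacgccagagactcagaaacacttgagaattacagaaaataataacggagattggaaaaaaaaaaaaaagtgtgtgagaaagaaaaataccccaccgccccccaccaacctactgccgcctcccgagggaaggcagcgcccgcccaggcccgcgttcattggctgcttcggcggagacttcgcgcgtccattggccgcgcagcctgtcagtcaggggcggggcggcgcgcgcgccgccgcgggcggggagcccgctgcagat
Foxo3, chr10:42276646-42276945, minus strand: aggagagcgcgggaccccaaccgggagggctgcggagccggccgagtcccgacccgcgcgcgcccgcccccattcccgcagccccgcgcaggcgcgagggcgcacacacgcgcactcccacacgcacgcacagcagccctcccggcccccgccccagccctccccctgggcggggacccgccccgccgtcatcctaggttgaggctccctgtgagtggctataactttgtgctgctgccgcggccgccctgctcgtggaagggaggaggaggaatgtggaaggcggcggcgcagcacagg
With the start at 0, window 1 of Foxp1 holds TGTTTGC at -167 and ATAAACA, the reverse complement of TGTTTAT, at -92. Window 2 holds TGTTTGT at -83 and TGTTTAT at -77, which share 1 base. No match to these letters was found in window 3 or in the windows of Foxo1 and Foxo3. The GC content was 60.3%, 48.7% and 75.3% in the 3 Foxp1 windows in this order, 61.3% in that of Foxo1 and 75.0% in that of Foxo3. At least 1 of the motifs occurred in 17.7% of all 32851 promoter windows of this length, and in 7 of the 33 windows (21.2%) of the 28 forkhead genes in the table. A match describes the letters and shows no binding, and the files do not say which start site was used in which subset.

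Foxp1 had 86.5, 88.3 and 85.2 CPM in the beta libraries, 172.0, 141.0 and 176.5 CPM in the alpha libraries and 258.1, 206.8 and 200.6 CPM in the delta libraries, scaled by TMM (trimmed mean of M values). The 3 groups did not overlap: every beta library lay below every alpha library, and every alpha library below every delta library. Foxp1 had a log2 fold change of -0.91 ± 0.12 in beta against alpha (edgeR adjusted p = 9.66e-06), a 1.88-fold lower level in beta. It was -1.36 ± 0.12 in beta against delta (edgeR adjusted p = 7.92e-08), a 2.56-fold lower level in beta. Against delta, alpha had a value of -0.44 ± 0.11 (edgeR adjusted p = 0.00775), and with alpha replicate 2 left out it no longer passed, at -0.34 (edgeR adjusted p = 0.0704). This alpha against delta call of Foxp1 was lost in 4 of 21 alternative settings: the others were log2(TPM + 1), at -0.08 (limma adjusted p = 0.89), log2(TPM + 0.1), also at -0.08, and the deposited normalised signal, at -0.29 (limma adjusted p = 0.136). Of the 9 Foxp1 counts, 7 were not whole numbers, so some of its reads were divided between genes in the authors' counting.

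Foxp2 (ENSMUSG00000029563, chr6:14901349-15441977, plus strand), known from studies of speech and neural circuits and required with Foxp1 and Foxp4 in mouse alpha cells, was lowest in the delta libraries, with no count in delta replicate 1. It had 60, 51 and 43 counts in the beta libraries, 196, 145 and 129 counts in the alpha libraries and 0, 5 and 25 counts in the delta libraries. Scaled, these were 7.70, 8.74 and 7.10 CPM in beta, 22.3, 18.3 and 18.2 CPM in alpha and 0, 0.756 and 3.21 CPM in delta. The 3 groups did not overlap in any pair, with alpha highest and delta lowest.

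The log2 fold change of Foxp2 in alpha against delta was 3.83 ± 0.63 (edgeR adjusted p = 0.000793), a 14.3-fold higher level in alpha, with a 95% interval of 2.6 to 5.07. Between beta and delta it was 2.51 ± 0.65 (edgeR adjusted p = 0.0108), with a 95% interval of 1.25 to 3.78. The size rests on delta replicate 3: without it the log2 fold changes were 5.70 in alpha against delta and 4.38 in beta against delta. Without delta replicate 1 they were 3.25 and 1.93, and without delta replicate 2 the beta against delta value of 2.25 no longer passed (edgeR adjusted p = 0.0528). The alpha markers summed to 6240.1, 2030.7 and 5434.3 CPM in delta replicates 1, 2 and 3, which had 0, 5 and 25 Foxp2 counts. The part of alpha cells in these counts was not tested. Delta replicate 3, with 25 Foxp2 counts, was the library with 2294.7 CPM of acinar markers, whose part in the result was not tested. Between beta and alpha the value was -1.32 ± 0.52 and missed the threshold (edgeR adjusted p = 0.0891), with a 95% interval of -2.34 to -0.30. It passed when beta and alpha libraries alone were fitted, with a log2 fold change of -1.34 (edgeR adjusted p = 1.3e-05), and also without delta replicate 1 or without delta replicate 3 (edgeR adjusted p = 0.00133 and 0.00429). It passed as well without a filter on low counts, with log2(TPM + 1) and without beta replicate 2 and delta replicate 3 together. Every other alternative missed, among them DESeq2 (DESeq2 adjusted p = 0.304), a replicate block (edgeR adjusted p = 0.146) and the deposited normalised signal (limma adjusted p = 0.378).

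Foxp4 (ENSMUSG00000023991, chr17:47867133-47924645, minus strand), the third FoxP protein of alpha cells, had 31.3, 36.3 and 31.4 CPM in beta libraries, 39.3, 47.3 and 37.1 CPM in alpha libraries and 41.8, 73.3 and 50.0 CPM in delta libraries. All beta libraries lay below all others, while alpha and delta overlapped. Foxp4 was lower in beta than in delta with a log2 fold change of -0.74 ± 0.18 (edgeR adjusted p = 0.0048). The values in beta against alpha, -0.32 ± 0.18, and in alpha against delta, -0.41 ± 0.18, did not pass the test (edgeR adjusted p = 0.227 and 0.108). The FoxP genes thus shared no single order of the subsets: alpha was highest for Foxp2, and delta was highest for Foxp1.

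**Figure D3:**
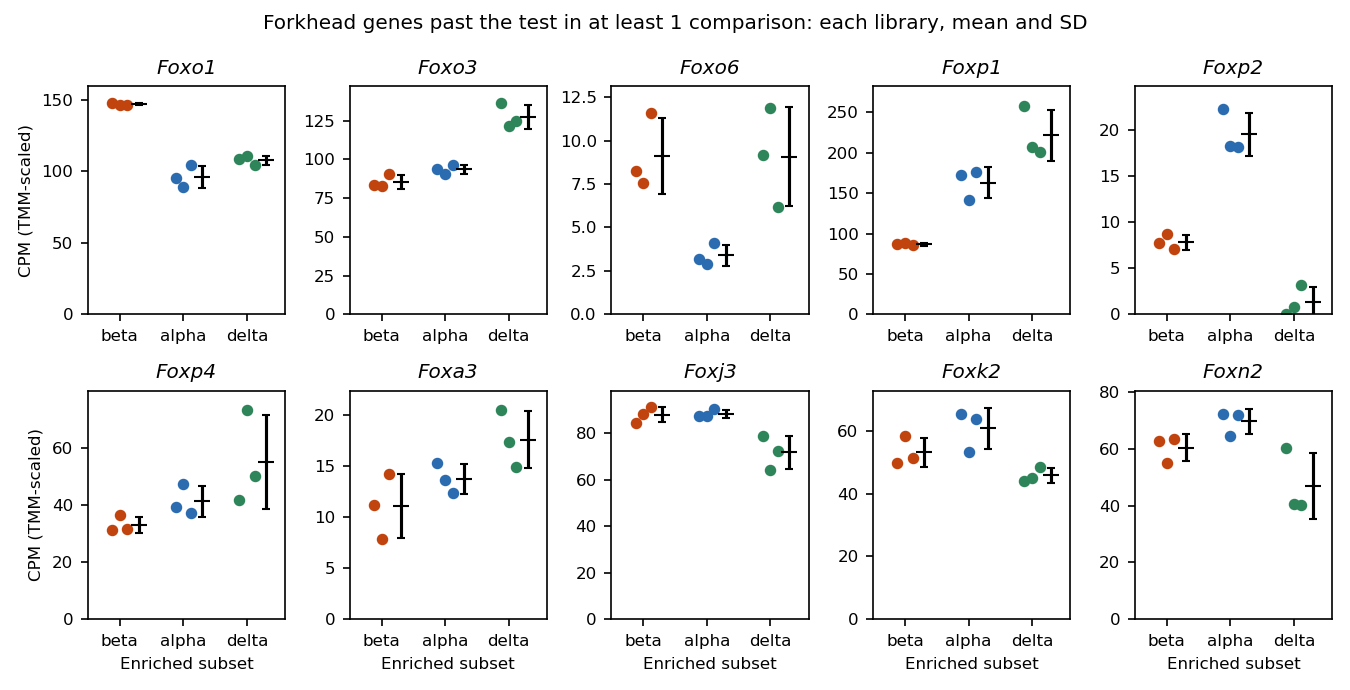
TMM-scaled CPM of the 10 forkhead genes past the test in at least 1 comparison, with each library as a point and the mean ± SD beside it (n = 3), for the beta, alpha and delta subsets; each panel has its own axis from 0. Foxo1 is highest in beta, Foxp2 in alpha, and Foxp1 and Foxo3 in delta.

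Foxo1 (ENSMUSG00000044167, chr3:52268336-52353221, plus strand), the main FoxO protein of beta cells and a restraint on their proliferation, was higher in beta than in both other subsets. It had 147.8, 146.3 and 146.7 CPM in beta libraries, 95.2, 89.3 and 104.4 CPM in alpha libraries and 108.7, 110.5 and 104.3 CPM in delta libraries. The beta libraries were close together and above all others, and the highest alpha library overlapped the lowest delta library. Its log2 fold change was 0.61 ± 0.10 in beta against alpha (edgeR adjusted p = 9.96e-05) and 0.45 ± 0.10 in beta against delta (edgeR adjusted p = 0.00152). Alpha and delta differed with a log2 fold change of -0.16 ± 0.10 (edgeR adjusted p = 0.247), with a 95% interval of -0.35 to 0.02.

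Foxo3 (ENSMUSG00000048756, chr10:42181841-42276755, minus strand), known for apoptosis and autophagy genes, was higher in delta than in the other subsets. It had 83.3, 82.6 and 90.3 CPM in beta libraries, 93.5, 90.4 and 96.4 CPM in alpha libraries and 136.2, 121.4 and 124.6 CPM in delta libraries. All delta libraries lay above all others, while the nearest beta and alpha values, 90.3 and 90.4 CPM, almost met. The log2 fold change was -0.58 ± 0.10 in beta against delta (edgeR adjusted p = 0.0002) and -0.45 ± 0.10 in alpha against delta (edgeR adjusted p = 0.0025). Beta and alpha differed with a log2 fold change of -0.13 ± 0.10 (edgeR adjusted p = 0.393). The order of Foxo1 and Foxo3 therefore differed: beta held the highest Foxo1 and the lowest mean Foxo3.

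Foxo6 (ENSMUSG00000052135, chr4:120267079-120287349, minus strand), a FoxO protein best known from brain, was scarce in alpha. It had 8.22, 7.54 and 11.6 CPM in beta libraries, 3.19, 2.90 and 4.09 CPM in alpha libraries and 9.15, 11.9 and 6.17 CPM in delta libraries. Every alpha library lay below every beta and every delta library, and beta and delta overlapped. Its value was a log2 fold change of 1.42 ± 0.34 in beta against alpha (edgeR adjusted p = 0.00422), a 2.68-fold higher level in beta, and -1.42 ± 0.34 in alpha against delta (edgeR adjusted p = 0.00492). Between beta and delta it was 0.00 ± 0.32, with a 95% interval of -0.63 to 0.64. The antisense gene Foxo6os had 3 counts, all in alpha replicate 1; the library kit keeps strand, and the sources used here do not say whether the counting used it. Foxo4 passed no comparison. It averaged 8.57 ± 0.35 CPM in beta, 12.4 ± 1.38 CPM in alpha and 13.1 ± 2.32 CPM in delta libraries (SD, n = 3 each), with a log2 fold change of -0.61 ± 0.23 in beta against delta (edgeR adjusted p = 0.0595).

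Foxa2 (ENSMUSG00000037025, chr2:148042877-148046969, minus strand) did not pass any comparison. It had 59.2, 54.2 and 57.6 CPM in beta libraries, 60.7, 69.6 and 56.9 CPM in alpha libraries and 54.6, 66.4 and 61.7 CPM in delta libraries, and all groups overlapped. On the log2 scale the difference was -0.13 with a 95% interval of -0.37 to 0.11 in beta against alpha, -0.09 with -0.33 to 0.15 in beta against delta and 0.04 with -0.20 to 0.27 in alpha against delta. Foxa3, a FoxA factor best known from liver, was lower in beta than in delta. It had 11.2, 7.88 and 14.2 CPM in beta libraries, 15.3, 13.6 and 12.4 CPM in alpha libraries and 20.5, 17.4 and 14.9 CPM in delta libraries. Beta and delta did not overlap, and the alpha libraries overlapped the beta and the delta libraries. The log2 fold change in beta against delta was -0.66 ± 0.24 (edgeR adjusted p = 0.0429), and the call held in 9 of 21 alternative settings, with edgeR adjusted p = 0.193 without beta replicate 2, 0.112 without beta replicate 1 and 0.111 without delta replicate 1.

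Among the other tested members, Foxn2 had 62.9, 55.0 and 63.5 CPM in beta libraries, 72.2, 64.7 and 72.1 CPM in alpha libraries and 60.2, 40.4 and 40.1 CPM in delta libraries. It was higher in alpha than in delta by a log2 fold change of 0.57 ± 0.15 (edgeR adjusted p = 0.00912), and all alpha libraries lay above all delta libraries. This call held in 18 of 21 alternative settings, with edgeR adjusted p = 0.0732 without beta replicate 2 and delta replicate 3 together. Foxk2, which with Foxk1 promotes glycolysis and binds the BAP1 deubiquitinase, had 49.7, 58.3 and 51.3 CPM in beta, 65.4, 53.4 and 63.9 CPM in alpha and 44.0, 45.1 and 48.6 CPM in delta libraries. It was higher in alpha than in delta by 0.41 ± 0.13 (log2 fold change, edgeR adjusted p = 0.0246), without overlap, and the call held in 15 of 21 alternative settings; it was lost, among others, without alpha replicate 1 or alpha replicate 3 (edgeR adjusted p = 0.0914 and 0.0872).

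Foxj3 had 84.6, 88.3 and 91.3 CPM in beta, 87.3, 87.3 and 90.4 CPM in alpha and 78.7, 64.4 and 72.6 CPM in delta libraries. All delta libraries were lowest. The log2 fold change in beta against delta was 0.29 ± 0.11 (edgeR adjusted p = 0.0476), and this call held in 3 of 21 alternative settings. For alpha against delta the value was 0.30 ± 0.11 and missed the threshold (edgeR adjusted p = 0.0518). The values for Foxj3 were therefore close to the threshold in both comparisons with delta.

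Foxc1, Foxj2, Foxk1, Foxm1 and Foxn3 passed no comparison. Foxn3, a factor first known as a checkpoint suppressor, averaged 66.0 ± 2.97 CPM in beta, 65.5 ± 5.97 CPM in alpha and 62.6 ± 4.41 CPM in delta libraries (SD, n = 3 each), and the 95% intervals of its log2 fold change ran from -0.21 to 0.23 in beta against alpha, from -0.15 to 0.30 in beta against delta and from -0.16 to 0.29 in alpha against delta. Foxj2 averaged 31.1 ± 2.51 CPM in beta, 27.6 ± 6.14 CPM in alpha and 30.4 ± 3.81 CPM in delta libraries. Foxk1 averaged 27.9 ± 1.85 CPM in beta, 31.3 ± 0.93 CPM in alpha and 38.6 ± 12.1 CPM in delta libraries, the last spread coming from delta replicate 2 at 51.9 CPM. Foxc1, known from mesenchyme and eye development, averaged 3.73 ± 0.41 CPM in beta, 4.93 ± 0.78 CPM in alpha and 3.92 ± 1.92 CPM in delta libraries. Foxm1, which drives genes of G2 and mitosis, had 11, 6 and 9 counts in beta libraries, 7, 28 and 9 counts in alpha libraries and 0, 10 and 6 counts in delta libraries. The 95% interval of its log2 fold change in alpha against delta ran from -0.46 to 3.05, so these counts leave a wide range of differences possible.

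The genes that control FoxO proteins were read from a list of 33 genes of the insulin, PI3K, AKT and SGK pathway, 14-3-3 proteins and FoxO modifiers, all of which were tested. Between beta and alpha, 13 were higher in beta, 2 were lower and 18 were not called, with a median log2 fold change of 0.22. These calls were 45.5% of the list, against 26.6% of all genes. Between beta and delta, 16 were higher in beta, 3 were lower and 14 were not called, with a median of 0.29 and 57.6% called, against 30.6% of all genes. For alpha and delta, 5 were higher in alpha, 2 were lower and 26 were not called, with a median of 0.07 and 21.2% called, against 24.3% of all genes. The medians of all genes were -0.02, -0.02 and -0.01.

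Igf1r, the receptor for insulin-like growth factor, averaged 587.8 ± 35.8 CPM in beta, 144.4 ± 26.3 CPM in alpha and 144.4 ± 6.83 CPM in delta libraries (SD, n = 3 each), a log2 fold change of 2.03 ± 0.12 in both comparisons of beta (edgeR adjusted p = 6.37e-10 against alpha and 5.34e-10 against delta). Pik3r1, a regulatory subunit of PI3K, averaged 203.2 ± 11.9 CPM in beta, 79.5 ± 3.52 CPM in alpha and 133.0 ± 7.84 CPM in delta libraries. It was higher in beta than in alpha by 1.35 ± 0.10 and lower in alpha than in delta at -0.74 ± 0.10 on the log2 scale (edgeR adjusted p = 8.28e-09 and 1.29e-05). Sgk1, a kinase that phosphorylates FoxO proteins, averaged 12.3 ± 1.92 CPM in beta, 2.13 ± 0.35 CPM in alpha and 3.60 ± 1.53 CPM in delta libraries, with a log2 fold change of 2.51 ± 0.37 in beta against alpha (edgeR adjusted p = 5.58e-05). Ywhaz, which encodes 14-3-3 zeta, was higher in beta than in alpha by a log2 fold change of 0.70 ± 0.10 (edgeR adjusted p = 3e-05).

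Against delta, beta was also higher for Pik3r3, Akt2 and Pdpk1, by 1.16 ± 0.14, 1.02 ± 0.13 and 0.70 ± 0.09 on the log2 scale (edgeR adjusted p = 5.32e-06, 1.14e-05 and 1.6e-05). Akt2 encodes an AKT kinase and Pdpk1 the kinase that activates AKT. Against delta, alpha was higher for the deacetylase gene Sirt1, for Akt2 and for the AKT phosphatase gene Phlpp1, by log2 fold changes of 0.70 ± 0.17, 0.53 ± 0.13 and 0.69 ± 0.18 (edgeR adjusted p = 0.00562, 0.007 and 0.00908). The insulin receptor gene Insr was lower in beta than in delta with a log2 fold change of -0.29 ± 0.09 (edgeR adjusted p = 0.027), and Irs2 passed no comparison. Insr and Irs2 were named after their values were seen.

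**Figure D4:**
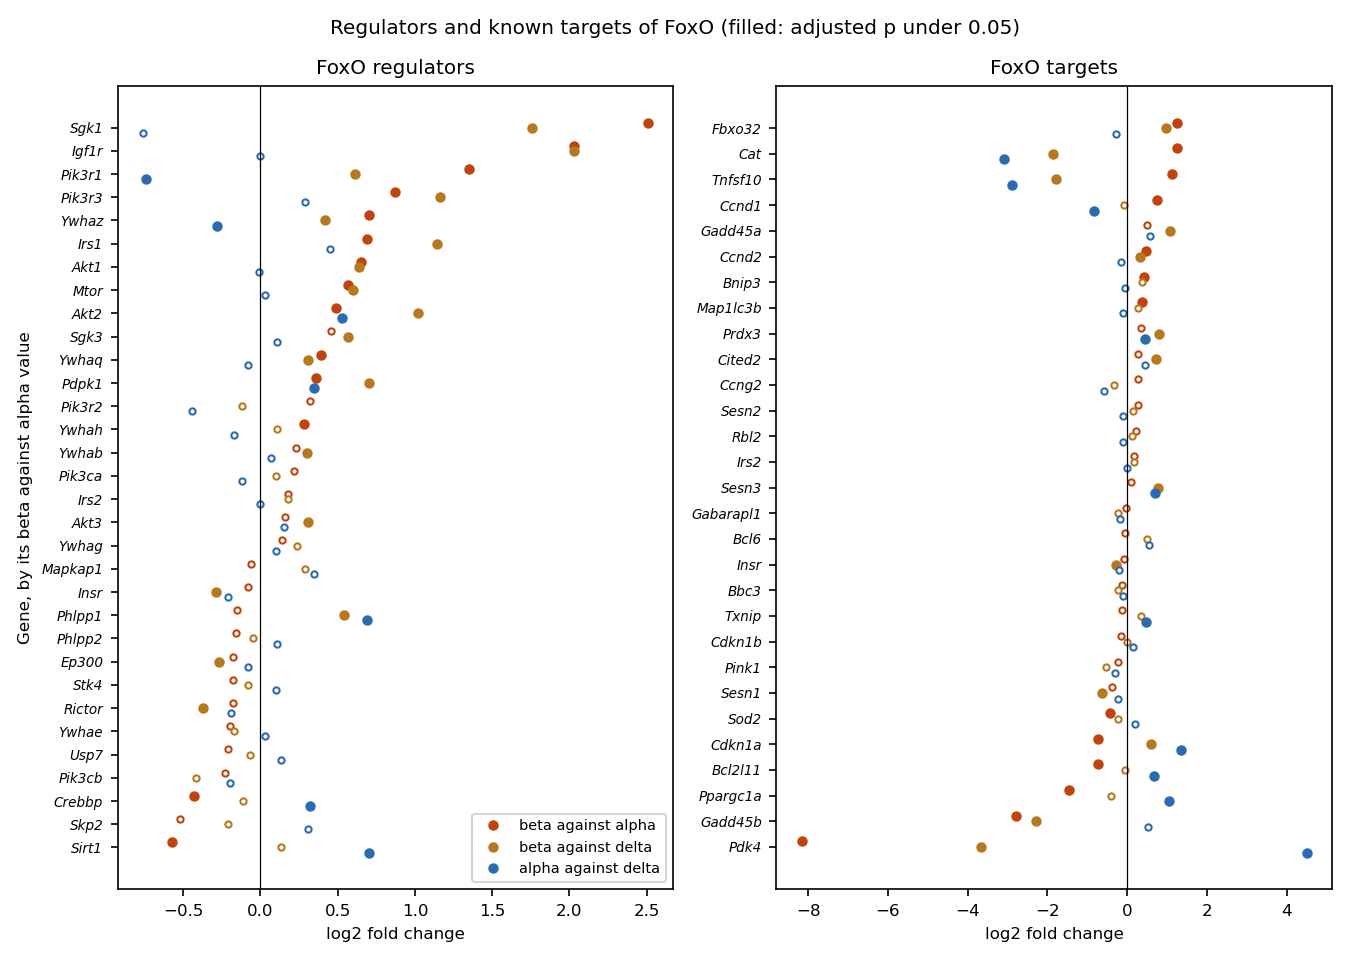
Log2 fold changes of 32 of the 33 genes listed as FoxO regulators (left) and the 29 tested genes listed as FoxO targets (right), in beta against alpha, beta against delta and alpha against delta, ordered by the beta against alpha value. Filled points have an adjusted p under 0.05; among the regulators most filled points of both beta comparisons lie right of 0, while the targets have filled points on both sides, with Pdk4 farthest out.

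Of 34 genes known as FoxO targets, 29 passed the filter; Fasl, G6pc, Igfbp1, Pck1 and Trim63 did not. Against alpha, 7 were higher in beta, 6 were lower and 16 were not called, and in beta against delta the counts were also 7, 6 and 16, which is 44.8% called in each, against 26.6% and 30.6% of all genes. Between alpha and delta 7 were higher in alpha, 3 were lower and 19 were not called, or 34.5% called, against 24.3% of all genes. The median log2 fold changes were 0.09, -0.01 and -0.05, so the list had no single direction. It was not split by the direction in which FoxO proteins act, and includes the repressed gene Ccnd1. The medians therefore give no direction of FoxO activity.

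Pdk4, the kinase that switches off pyruvate dehydrogenase, averaged 0.791 ± 0.205 CPM in beta, 237.3 ± 37.5 CPM in alpha and 10.4 ± 3.80 CPM in delta libraries (SD, n = 3 each). Its log2 fold change was -8.16 ± 0.31 in beta against alpha, -3.66 ± 0.37 in beta against delta and 4.5 ± 0.22 in alpha against delta (edgeR adjusted p = 8.95e-11, 2.31e-06 and 1.87e-09). Fbxo32, the ubiquitin ligase atrogin-1, was higher in beta, by log2 fold changes of 1.25 ± 0.19 against alpha and 0.98 ± 0.19 against delta (edgeR adjusted p = 8.76e-05 and 0.000719). Tnfsf10, the death ligand TRAIL, averaged 11.2 ± 2.32 CPM in beta, 5.14 ± 0.65 CPM in alpha and 38.3 ± 6.98 CPM in delta libraries. It was lower than in delta with a log2 fold change of -1.78 ± 0.21 in beta and at -2.89 ± 0.23 in alpha (edgeR adjusted p = 4.58e-06 and 3.71e-08). Cat, which encodes catalase, was lower in alpha than in delta with a log2 fold change of -3.09 ± 0.41 (edgeR adjusted p = 2.04e-05).

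The cyclin gene Ccnd1, which FoxO proteins repress, averaged 123.0 ± 14.1 CPM in beta, 73.0 ± 1.76 CPM in alpha and 130.9 ± 14.1 CPM in delta libraries. It was higher in beta than in alpha by a log2 fold change of 0.75 ± 0.11 and lower in alpha than in delta at -0.84 ± 0.11 (edgeR adjusted p = 6.06e-05 and 2.05e-05). Ppargc1a, a coactivator of mitochondrial genes, was lower in beta than in alpha with a log2 fold change of -1.45 ± 0.25 (edgeR adjusted p = 0.000296), and Sesn3, a sestrin, was higher in beta than in delta by 0.77 ± 0.09 (edgeR adjusted p = 5.22e-06).

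The 5 islet genes known in mice to depend on Foxa1 or Foxa2 were all called in beta against delta and in alpha against delta. Gcg and Pdx1 are also markers of the subsets themselves, and a part of FoxA proteins in these differences was not tested. Hadh, an enzyme of fatty acid oxidation, averaged 302.2 ± 10.2 CPM in beta, 28.9 ± 3.53 CPM in alpha and 164.9 ± 11.1 CPM in delta libraries. Pdx1, the beta and delta cell homeobox factor, averaged 131.5 ± 12.7 CPM in beta, 10.3 ± 2.98 CPM in alpha and 70.9 ± 4.38 CPM in delta libraries. Both were higher in beta than in alpha, by 3.39 ± 0.11 and 3.68 ± 0.17 on the log2 scale (edgeR adjusted p = 8.51e-13 and 4.09e-11). They were also higher in beta than in delta, by a log2 fold change of 0.87 ± 0.10 and 0.89 ± 0.15 (edgeR adjusted p = 2.65e-06 and 0.000129), and lower in alpha than in delta, at -2.51 ± 0.11 and -2.79 ± 0.17 (edgeR adjusted p = 2.9e-11 and 1.41e-09).

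Gcg, the glucagon gene, was lower in beta than in alpha with a log2 fold change of -7.83 ± 0.61 and higher in alpha than in delta by 4.35 ± 0.52 (edgeR adjusted p = 0.000125 and 0.00125). Abcc8 and Kcnj11, the subunits of the ATP-sensitive potassium channel, were lower in beta than in delta, with log2 fold changes of -0.69 ± 0.11 and -0.54 ± 0.11 (edgeR adjusted p = 7.1e-05 and 0.000942). Abcc8 was also lower in alpha than in delta, with a log2 fold change of -0.67 ± 0.11 (edgeR adjusted p = 0.000146). Against alpha their beta log2 fold changes were -0.03 and -0.09 and did not pass (edgeR adjusted p = 0.897 and 0.64). In all, 3 of the 5 genes were called in beta against alpha and 5 in each of the other comparisons, where 26.6%, 30.6% and 24.3% of all genes were called in beta against alpha, beta against delta and alpha against delta.

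Of 23 genes of G2 and mitosis that Foxm1 drives in dividing cells, 11 passed the filter. Against alpha, 1 was called, and it was higher in beta: Top2a, a topoisomerase of dividing cells, with 9.97 ± 3.94 CPM in beta, 2.20 ± 1.77 CPM in alpha and 1.90 ± 1.16 CPM in delta libraries (log2 fold change 2.20 ± 0.55, edgeR adjusted p = 0.00638). Against delta, Top2a and Cenpf, a centromere protein, were higher in beta, by log2 fold changes of 2.40 ± 0.57 and 3.91 ± 1.10 (edgeR adjusted p = 0.00335 and 0.013). Cdc25b, a phosphatase of mitotic entry, was lower in beta than in delta with a log2 fold change of -1.05 ± 0.33 (edgeR adjusted p = 0.0213). Between alpha and delta edgeR called 0 of 11, DESeq2 also called 0, and 1 gene had an unadjusted p under 0.05. The calls were 9.09% of the tested genes of this list in beta against alpha and 27.3% in beta against delta, against 26.6% and 30.6% of all genes. Over the 3 comparisons these were 4 calls, and leaving out 1 library gave 2 without beta replicate 1, 2 without delta replicate 1 and 7 without alpha replicate 3.

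The list of motile cilia genes held 26 genes, of which 24 were matched in the files and 14 passed the filter. Set against alpha, beta had 0 higher, 4 lower and 10 genes not called, with a median log2 fold change of -0.51. Set against delta, beta had 0 higher, 7 lower and 7 not called, with a median of -0.80. Alpha against delta gave 3 higher in alpha, 3 lower and 8 not called, with a median of -0.56. The calls were 28.6%, 50.0% and 42.9% of the 14 genes in these comparisons, against 26.6%, 30.6% and 24.3% of all genes, so the first share was near that of all genes. The medians of all genes were -0.02, -0.02 and -0.01. Foxj1 itself had at most 5 counts in a library.

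Drc1, a subunit of the dynein regulatory complex, averaged 1.38 ± 0.14 CPM in beta, 32.1 ± 7.33 CPM in alpha and 16.6 ± 4.0 CPM in delta libraries. Its log2 fold change was -4.53 ± 0.30 in beta against alpha, -3.58 ± 0.30 in beta against delta and 0.95 ± 0.22 in alpha against delta (edgeR adjusted p = 3.28e-09, 6.76e-08 and 0.00427). Dnah11, an axonemal dynein heavy chain, averaged 0.75 ± 0.54 CPM in beta, 20.9 ± 3.63 CPM in alpha and 2.97 ± 2.07 CPM in delta libraries, and was lower in beta than in alpha with a log2 fold change of -4.82 ± 0.54 and higher in alpha than in delta by 2.79 ± 0.44 (edgeR adjusted p = 3.22e-06 and 0.000153). Dnah9, another such chain, averaged 14.8 ± 1.66 CPM in beta, 20.4 ± 2.23 CPM in alpha and 47.7 ± 8.44 CPM in delta libraries. It was lower than in delta with a log2 fold change of -1.69 ± 0.18 in beta and at -1.22 ± 0.17 in alpha (edgeR adjusted p = 1.01e-06 and 3.73e-05).

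Ccdc39, a protein of the ciliary axoneme, was lower in beta than in alpha with a log2 fold change of -1.46 ± 0.26 and than in delta at -2.12 ± 0.26 (edgeR adjusted p = 0.000398 and 6.4e-06). Tekt2, a tektin, was lower in beta than in delta with a log2 fold change of -2.51 ± 0.48 (edgeR adjusted p = 0.000538). Rfx2 was lower in beta than in alpha with a log2 fold change of -0.58 ± 0.21 (edgeR adjusted p = 0.0486), and Rfx3, a ciliary transcription factor known to act in islet cells, was lower in alpha than in delta at -0.61 ± 0.10 (edgeR adjusted p = 0.000228).

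The 23 proteins that bind FoxP or FoxK proteins in repressor complexes (NuRD, CtBP, SIN3 and the BAP1 deubiquitinase) were all tested. Against alpha, 2 were higher in beta, 5 were lower and 16 were not called. Against delta, 1 was higher in beta, 6 were lower and 16 were not called, and in alpha against delta 2 were higher in alpha, 3 were lower and 18 were not called. The medians were -0.09, -0.07 and 0.00, close to those of all genes. The shares called, 30.4%, 30.4% and 21.7%, were also near the 26.6%, 30.6% and 24.3% of all genes. Over the 3 comparisons these were 19 calls, against 12 without beta replicate 3.

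Ctbp2, a FoxP-binding co-repressor, averaged 14.4 ± 2.07 CPM in beta, 27.1 ± 0.64 CPM in alpha and 29.9 ± 3.33 CPM in delta libraries. It was lower in beta than in alpha with a log2 fold change of -0.91 ± 0.17 and than in delta at -1.05 ± 0.17 (edgeR adjusted p = 0.000591 and 0.00013). Asxl1, the BAP1 partner, averaged 40.9 ± 3.5 CPM in beta, 81.7 ± 9.24 CPM in alpha and 55.6 ± 3.42 CPM in delta libraries. It was lower in beta than in alpha with a log2 fold change of -0.99 ± 0.12 and than in delta at -0.44 ± 0.13, and higher in alpha than in delta by 0.55 ± 0.12 (edgeR adjusted p = 8.58e-06, 0.0122 and 0.00261). Rbbp7, a histone-binding NuRD subunit, was lower in beta than in alpha with a log2 fold change of -0.44 ± 0.11 and than in delta at -0.50 ± 0.11 (edgeR adjusted p = 0.00541 and 0.00177). Ncor1, a nuclear co-repressor, was higher than in delta by a log2 fold change of 0.38 ± 0.09 in beta and by 0.51 ± 0.09 in alpha (edgeR adjusted p = 0.00208 and 0.000255). Ogt, the O-GlcNAc transferase, was higher in beta than in alpha by a log2 fold change of 0.45 ± 0.10 and lower in alpha than in delta at -0.45 ± 0.10 (edgeR adjusted p = 0.00232 and 0.00277), and Hcfc1 was lower in alpha than in delta at -0.33 ± 0.09 (edgeR adjusted p = 0.0151).

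The estimated transcript length that divides the reads of a gene into TPM differed between libraries for some members, which touches their TPM levels. The counts and the edgeR fold changes are not corrected for length, and the part of length in them was not tested. For Foxp1 the length was 2616 to 2877 bases in beta, 2801 to 3342 bases in alpha and 3097 to 3391 bases in delta libraries. For Foxp2 it was 2796 to 3838 bases in beta, 2938 to 4096 bases in alpha and 1770 to 2731 bases in delta libraries. Over all 9 libraries the length ran from 757 to 4387 bases for Foxm1, from 1770 to 4096 bases for Foxp2 and from 2497 to 4973 bases for Foxj2. It ran from 2191 to 4127 bases for Foxj3 and from 2887 to 5029 bases for Foxk2. It was the same in all 9 libraries for Foxo1 (8665 bases), Foxo6 (2615 bases), Foxa3 (2037 bases) and Foxc1 (5844 bases).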

How the data were processed

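RNA was sequenced from 9 libraries of sorted mouse islet cells, 3 each of the beta-, alpha- and delta-enriched subsets. Per the labels' protocols, rRNA was depleted and a strand-specific kit was used. Per the submitters' processing notes, the tools were STAR 2.5.2b, RSEM (version not given in the sources used here), R 3.5.1 and DESeq2 1.22.1, with GRCm38.p6. The deposited gene tables hold expected counts, TPM and, as a further deposited value, the effective and full transcript length. The authors also deposited 1 normalised signal table over all libraries, which served only in an alternative.

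The expected counts were rounded to whole numbers, filtered with filterByExpr by subset and scaled by TMM. They were tested with edgeR 4.0.16 (robust quasi-likelihood fit, R 4.3.3) over 15896 genes in a fit of all 9 libraries, with Benjamini-Hochberg adjustment and a threshold of 0.05. Errors of log2 fold changes are SEs. limma 3.58.1 and DESeq2 1.42.0 served in alternatives. The fit was tested on simulated counts.

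The members and gene lists were chosen with earlier results of these data known. Every tested member is named, called members get their value in every library, and up to 4 called genes of smallest p are named per list and comparison. Promoter windows come from RefSeq tables of GRCm38.p6 and were matched by symbol for 28 of 44 members. One forkhead gene without counts and one gene of the FoxO regulator list enter the counts but are not reported here by name.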

Additional observations from a re-analysis of the deposited data

Results flagged for a closer look

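The noncoding gene Foxd2os, which the rule for forkhead genes does not include, had 6 counts in alpha replicate 1, above the 3 counts that a count of 0 allows, and 1 count in beta replicate 2. It had no count in the other 7 libraries. Foxd2, its neighbour, had 4 counts in alpha replicate 1 and none elsewhere, and Foxo6os had 3 counts in the same library. The sums over all libraries were 7 counts for Foxd2os and 3 counts for Foxo6os.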

How the results depend on the processing

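Of 21 alternatives, all kept Foxp1 lower in beta than in alpha and delta, and Foxp2 higher in alpha than in delta. Foxo1, Foxo3, Foxo6 and Foxp4 lost their calls with log2(TPM + 1) and log2(TPM + 0.1) and with no other alternative. The TPM fits called 11.1% to 15.6% of all genes and moved the median log2 fold change of all genes against delta by 0.12 to 0.23. Forkhead calls in beta against alpha, 3 in the main analysis, were 1 with log2(TPM + 0.1), 6 with the 2 subsets alone, a fit that called 35.4% of all genes against 26.6%, and 3 to 4 without 1 library. In beta against delta, 7 calls became 2 with log2(TPM + 1), 2 with log2(TPM + 0.1) and 4 to 8 without 1 library, the lowest without delta replicate 2. In alpha against delta, 6 calls became 1 with either TPM scale and 5 to 8 without 1 library. Without 1 library, the share of all genes called ran from 19.2% to 30.0% in beta against alpha. It ran from 23.4% to 31.5% in beta against delta and from 18.4% to 26.0% in alpha against delta.

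Summed over the 3 comparisons, with log2(TPM + 1) and log2(TPM + 0.1) the calls were 9 and 8 for FoxO regulators (41), 13 and 12 for FoxO targets (36), 1 and 1 for Foxm1 genes (4), 10 and 8 for cilia genes (17) and 4 and 4 for co-repressors (19), the main count standing in parentheses. The deposited normalised signal, an alternative chosen after seeing the data, gave 22, 2 and 11 for regulators, Foxm1 genes and co-repressors. The Foxm1 list had 11 calls without a filter and 2 to 7 without 1 library. Co-repressors had 11 calls without beta replicate 2 and delta replicate 3 together, and 12 to 22 without 1 library. The cause was not tested.

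With the replicate block, forkhead calls were 3 in beta against alpha, 8 in beta against delta and 8 in alpha against delta. That fit called 29.1%, 33.0% and 27.0% of all genes in these comparisons. By the correlation of deviations, same-numbered libraries correlated at 0.068 to 0.112, 0.001 to 0.075 and 0.07 to 0.086 in these comparisons. Libraries of unlike number correlated at -0.102 to 0.019, -0.061 to 0.021 and -0.082 to -0.001. Every beta and alpha library correlated best with its own number in beta against alpha, as did every alpha and delta library in alpha against delta. In beta against delta, beta replicate 2 and delta replicate 2 did not. These small correlations are a hint of pairing from the data and not from the design. Each list count stayed within 1.5 times under the block.

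Directions that turned were all of differences that did not pass the test. With log2(TPM + 1) and log2(TPM + 0.1) the log2 fold changes were 0.14 and 0.15 for Foxa2, 0.02 and 0.13 for Foxc1, -0.12 and -0.13 for Foxj2 and -0.08 and -0.09 for Foxn3 in beta against delta. They were -0.22 and -0.24 for Foxn3 in beta against alpha and 0.06 and 0.07 for Foxo1 in alpha against delta, and 0.02 for Foxo4 in alpha against delta with log2(TPM + 0.1). With the deposited signal they were 0.06 for Foxc1, -0.29 for Foxj2 and -0.24 for Foxn3 in beta against delta, -0.19 for Foxn3 in beta against alpha and -0.06 for Foxn3 in alpha against delta. Upper-quartile factors gave -0.03 for Foxj2 in beta against delta and -0.07 for Foxn3 in beta against alpha, the fit of 2 subsets -0.01 for Foxn3 in beta against alpha, and the replicate block 0.02 for Foxc1 in beta against delta. Without beta replicate 2 and delta replicate 3 together, Foxj2 was at -0.14 in beta against delta. Without 1 library the values ran from -0.04 to 0.11 for Foxa2, -0.26 to 0.04 for Foxj2 and -0.20 to 0.05 for Foxo4 in alpha against delta. They ran from -0.39 to 0.31 for Foxc1 and -0.06 to 0.11 for Foxj2 in beta against delta, and from -0.87 to 0.34 for Foxm1 and -0.04 to 0.08 for Foxn3 in beta against alpha.

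Counting error is largest relative to the level where counts are few: Foxm1 had 0 to 28 counts a library and Foxp2 had 0 to 25 in delta. Of the 27 genes that were not tested, 14 had no count.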
